A study of Mus musculus with 6 samples.

Results

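Transcripts of 10 genes of the hypophysiotropic system were followed on 6 expression arrays of mouse brain RNA. The genes comprise the peptides encoded by Crh, Trh, Sst, Ghrh and Gal, the receptors encoded by Crhr1, Crhr2, Sstr1 and Sstr2, and the binding protein encoded by Crhbp. Every probe whose gene name in the scanner files equals 1 of these symbols was taken, without a choice among probes. This gave 15 probes for 10 genes, of 56605 probes under 37074 gene names on the array. The rule itself uses no measured value.

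Of the arrays, 3 are labelled GSK-J4 and 3 vehicle, each with RNA of a different male C57BL/6J DIO mouse. DIO mice are made obese by diet, here by a diet with 60 kcal% fat for 16 weeks from an age of 6 weeks, and mice of both groups received it. GSK-J4 inhibits the Kdm6 demethylases, which remove the methyl groups of H3k27me3. It was given at 30 mg per kg, and vehicle mice have a dose of 0. The tissue was labelled hypothalamus and taken at ZT 6 h, that is, 6 h after lights on. The series description places it on day 4 of exposure, whereas the methods describe a longer daily course of injections and do not name the day of the arrays. The comparison asks how transcripts of hypothalamic tissue differ between inhibitor and vehicle.

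Hypophysiotropic neurons of the hypothalamus end at the median eminence and release their peptides into the portal vessels of the pituitary. Crh drives the release of ACTH, Trh that of thyrotropin and Ghrh that of growth hormone, while somatostatin, from Sst, inhibits growth hormone. Galanin, from Gal, is a neuropeptide of many hypothalamic neurons, including cells that also make Ghrh. All these peptides are also made by neurons that do not project to the median eminence. Somatostatin and Crh, for example, are peptides of cortical interneurons.

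Each value below is a normalized log2 signal from the deposited table, which the authors quantile normalized, so that 1 unit is a factor of 2 in signal. Arrays are listed from replicate 1 to replicate 3, and a log2 fold change is the mean of the GSK-J4 arrays minus the mean of the vehicle arrays. For a test, the scanner flags had to place a probe well above background throughout at least 1 group, that is, on 3 of 3 arrays. The 34443 probes so kept were fitted together with limma, and a probe was called where its adjusted p was 0.05 or less. Signals of different probes are not on one scale, and no probe is ranked against another by level. The array measures RNA of a whole tissue piece, so fewer cells of a type and less RNA per cell cannot be told apart.

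The arrays differed in ways that touch every result. All vehicle arrays lay on slide 1 and all GSK-J4 arrays on slide 2, so slide and treatment cannot be told apart. Between 62.8% and 63.6% of the probes were well above background on the vehicle arrays, against 57.7% to 58.7% on the GSK-J4 arrays. The 75th percentile of the unscaled signal was 1136 to 1335 on the vehicle arrays and 606 to 693 on the GSK-J4 arrays. Correlations between arrays of 1 group were 0.978 to 0.995. The number of arrays limits the precision.

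Markers of the labelled tissue were detected in part. Of 8 hypothalamus markers, 3, namely Hcrt, Nr5a1 and Oxt, had a probe well above background on all 6 arrays. Nkx2-1, a transcription factor of the ventral forebrain that includes the hypothalamus, was on no array well above background. Avp and Pmch, which encode vasopressin and melanin-concentrating hormone, were each so on 1 vehicle and 2 GSK-J4 arrays. Sim1 and Otp, factors needed by the neuroendocrine neurons of the paraventricular nucleus, were on no array. Of 7 markers of the arcuate nucleus, a part of the hypothalamus, 5 (Npy, Pomc, Cartpt, Tac2 and Th) were well above background on all 6 arrays. Agrp was so on 3 vehicle and 2 GSK-J4 arrays. Kiss1 was so on 2 vehicle and 3 GSK-J4 arrays on 1 probe, and on 1 vehicle array on the other. All 4 markers of cortex and hippocampus (Emx1, Neurod6, Fezf2 and Tbr1) were well above background on all 6 arrays, as were all 4 of striatum and all 5 of thalamus. Of 7 anterior pituitary markers, Gh, Prl, Fshb, Cga and Pou1f1 were on no array. Lhb was well above background on all 6 arrays on 1 of its 2 probes, and Tshb on 1 vehicle array. The values below are thus those of a tissue piece in which markers of forebrain regions outside the hypothalamus were also detected.

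**Figure D1:**
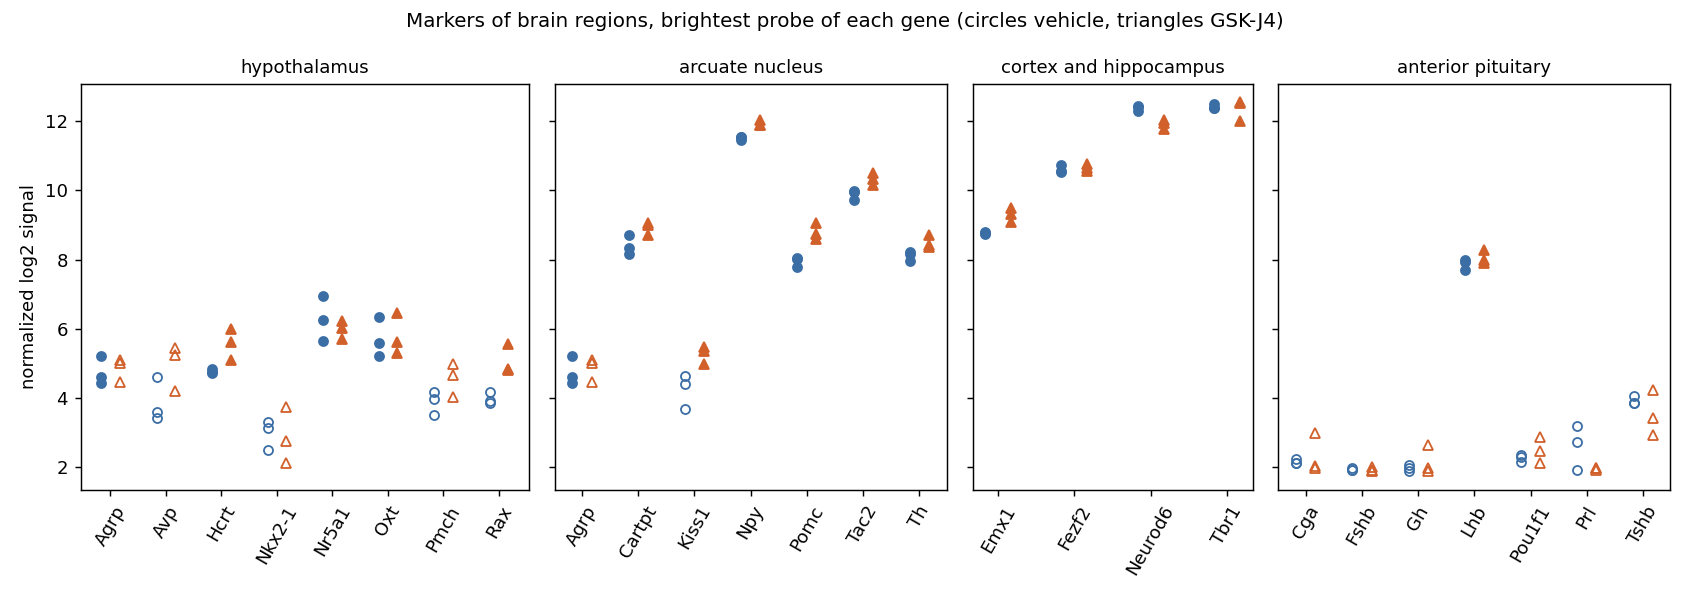
Normalized log2 signal of marker genes (vertical axis) for the brightest probe of each gene, with 1 point per array, circles for vehicle and triangles for GSK-J4. Hollow symbols mark a group with at least 1 array on which the probe was not clearly above background. Nkx2-1, Avp and Pmch are hollow in both groups, whereas all 4 markers of cortex and hippocampus are filled.

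Among the peptides, the transcript of Ghrh rose on 1 of its probes, and no other peptide was called. The log2 fold changes of the 5 kept peptide probes were all positive, with a median of 0.41, beside a median of 0.02 over all kept probes. Of these 5 probes, 3 had groups that did not overlap, all higher on the GSK-J4 arrays. Over all kept probes, 8.39% were called higher and 8.42% lower, and 24.5% had groups that did not overlap in the higher direction and 21.2% in the lower. Of the 12 kept member probes, 1 was called higher and 0 lower by limma, beside 3 higher and 0 lower at an unadjusted p of at most 0.05. At that unadjusted p, 6705 of all 34443 kept probes were higher and 5872 lower.

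Ghrh encodes growth hormone-releasing hormone, made by neurons of the arcuate nucleus. Probe A_51_P108428 (mm9 chr2:157155253-157155312, minus strand), gave 4.69, 4.87 and 4.66 on the vehicle arrays and 5.49, 5.23 and 5.28 on the GSK-J4 arrays. All GSK-J4 arrays lay above all vehicle arrays. The log2 fold change was 0.59 (SE 0.11, 95% interval 0.33 to 0.86), a 1.51-fold higher signal, with a limma adjusted p of 0.0250. An exact permutation test of 3 arrays against 3 gave a two-sided p of 0.1, the smallest this design allows. The call was lost without vehicle replicate 1 (0.57, adjusted p 0.0777), vehicle replicate 2 (0.66, 0.0699), vehicle replicate 3 (0.55, 0.0887) or GSK-J4 replicate 1 (0.52, 0.0514), with the direction kept. It was also lost with normexp background correction (0.23, adjusted p 0.0733). The probe was dim. The lowest signal well above background on an array was 3.79 to 3.90 in the vehicle group and 4.39 to 4.64 in the GSK-J4 group, a step in the direction of the Ghrh difference, and its part in that difference was not tested.

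The other probe of Ghrh, A_55_P2742073 (chr2:157155258-157155317, minus strand), gave 4.61, 4.95 and 5.01 on the vehicle arrays and 5.45, 5.33 and 4.97 on the GSK-J4 arrays. Here GSK-J4 replicate 3 fell among the vehicle arrays, so the groups overlapped. Its log2 fold change was 0.39 (SE 0.17, 95% interval -0.03 to 0.81), with a limma adjusted p of 0.155. Both probes are 60 bases long and overlap over 55 of them, so they are not independent readings of the transcript. They differ at 2 bases of the overlap, shown here because the pair reads almost the same stretch and only 1 of them was called. Counted from 1 at the 5′ end of the overlap, and with the base of A_55_P2742073 first, the substitutions are T28C and A42G. The capitals mark these bases in a window of 30 bases.
A_55_P2742073: cttcagTtctgaccttttccAtcctctgta
A_51_P108428: cttcagCtctgaccttttccGtcctctgta
Which of these forms the mice carry was not analysed here.

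Gal gave the next largest difference among the kept probes. Its probe A_51_P258281 (chr19:3411143-3411202, minus strand), of which the sequence has 1 reading frame without a stop codon, is given whole because it is the only reading of this gene. The probes of Crh and Sst and both probes of Ghrh also have 1 such frame. Whether the Gal probe reads coding sequence was not analysed here.
A_51_P258281: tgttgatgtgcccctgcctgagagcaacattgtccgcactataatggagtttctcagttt
The vehicle arrays gave 7.67, 7.62 and 7.55 and the GSK-J4 arrays 8.51, 8.13 and 7.88. The groups did not overlap, and the GSK-J4 arrays were spread more widely (SD 0.32) than the vehicle arrays (SD 0.06). Its log2 fold change was 0.56 (SE 0.17, 95% interval 0.15 to 0.97), with a limma adjusted p of 0.0698 and an exact permutation p of 0.1. The probe was not called, but was so without GSK-J4 replicate 3 (0.70, adjusted p 0.0429), with normexp correction (0.45, 0.0377) and with array weights (0.56, 0.0367).

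Crh encodes corticotropin-releasing hormone, the peptide at the head of the stress axis. Its probe A_55_P2071384 (chr3:19593482-19593541, minus strand) gave 8.14, 8.62 and 8.71 on the vehicle arrays and 8.84, 8.90 and 8.96 on the GSK-J4 arrays. The groups did not overlap, and vehicle replicate 1 was the lowest array. The difference on the log2 scale was 0.41 (SE 0.16, 95% interval 0.01 to 0.81), with a limma adjusted p of 0.130 and an exact permutation p of 0.1. Without vehicle replicate 1 it was 0.24, with an adjusted p of 0.151.

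Sst encodes somatostatin, the inhibitor of growth hormone release and a peptide of many forebrain interneurons. Its probe A_55_P2837304 (chr16:23889681-23889740, minus strand) gave 15.14, 15.36 and 15.22 on the vehicle arrays and 15.31, 15.33 and 15.33 on the GSK-J4 arrays. The groups overlapped, and the log2 fold change was 0.08 (SE 0.08, 95% interval -0.12 to 0.28), with a limma adjusted p of 0.496. This value depended on the scaling. When arrays were instead scaled by their 75th percentiles, the log2 fold change was 0.53 and the limma adjusted p 0.0203, which is a call. Over the whole array that scaling called 5037 probes higher and 3637 lower, beside 2889 and 2899 on the deposited values. No spot of the kept probes was saturated.

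Trh encodes thyrotropin-releasing hormone, and its only probe, A_55_P2071349 (chr6:92192061-92192120, minus strand), was not kept. It gave 4.68, 3.62 and 3.93 on the vehicle arrays, of which 1 was well above background, and 6.59, 3.56 and 5.63 on the GSK-J4 arrays, of which 2 were. The groups overlapped, since GSK-J4 replicate 2 was the lowest of all 6 arrays. With no filter on dim probes the log2 fold change was 1.18, with a limma adjusted p of 0.443.

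**Figure D2:**
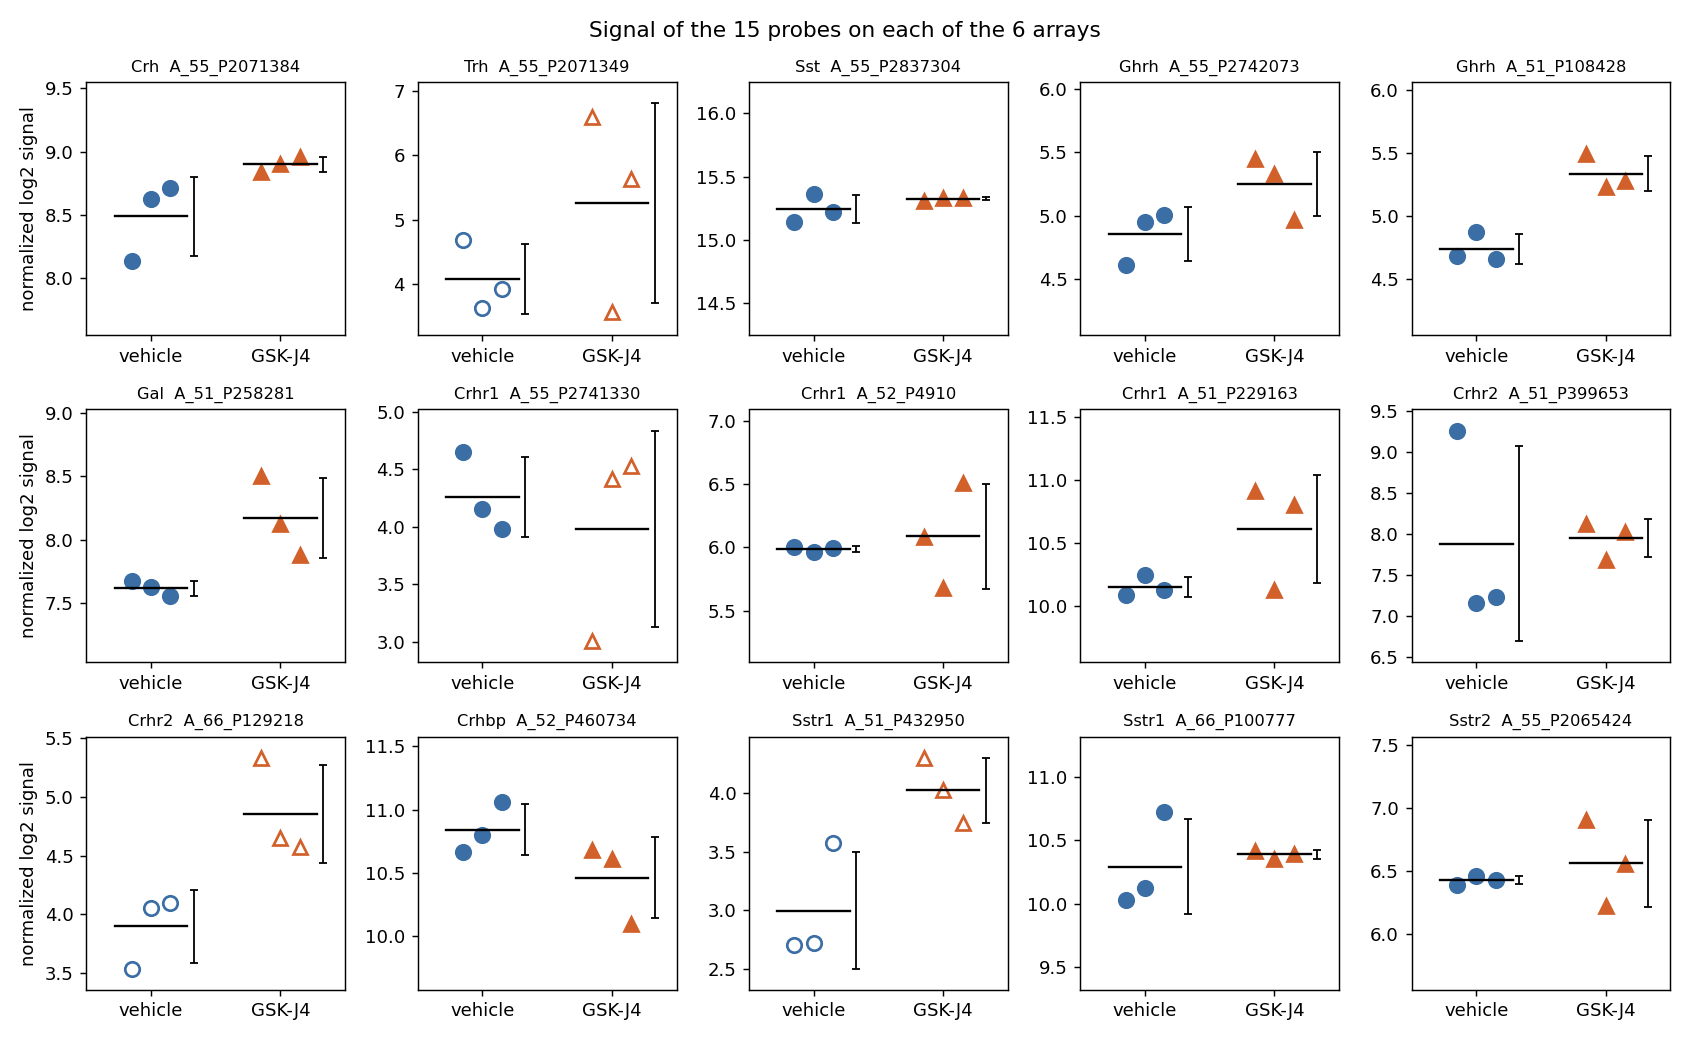
Normalized log2 signal (vertical axis) of the 15 probes on each of the 6 arrays, circles for vehicle and triangles for GSK-J4, with the group mean as a line and the SD beside it as a bar. Hollow symbols mark a group with at least 1 array on which the probe was not clearly above background, and each panel has a scale of its own. Among kept probes, the groups of Crh, of Gal and of Ghrh A_51_P108428 do not overlap, and 1 vehicle array stands at 9.26 for Crhr2 A_51_P399653.

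Of the receptors and the binding protein, none of the 7 kept probes was called. Their log2 fold changes had a median of 0.10, with 5 positive, and the groups overlapped on all 7. At the same scale the peptides had a median of 0.41. This difference between the groups of genes was not tested.

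Crhr1 encodes the main receptor of Crh, through which the peptide acts on the pituitary and the forebrain, and it was read by 3 probes with different results. A_51_P229163 (chr11:104036691-104036750, plus strand) gave 10.09, 10.24 and 10.13 on the vehicle arrays and 10.91, 10.13 and 10.80 on the GSK-J4 arrays. GSK-J4 replicates 1 and 3 lay above all vehicle arrays, whereas replicate 2 fell among them. The log2 fold change was 0.46 (SE 0.22, 95% interval -0.07 to 0.99), with a limma adjusted p of 0.183. Without GSK-J4 replicate 2 it was 0.70, with an adjusted p of 0.0245, which is a call that rests on leaving out that array.

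A_52_P4910 (chr11:104034643-104034702) gave 6.00, 5.96 and 6.00 on the vehicle arrays and 6.08, 5.68 and 6.51 on the GSK-J4 arrays. The GSK-J4 arrays lay on both sides of the vehicle arrays, and the log2 fold change was 0.10 (95% interval -0.41 to 0.61, limma adjusted p 0.751). Without GSK-J4 replicate 3 its sign turned, to -0.11. A_55_P2741330, whose coordinates run from chr11:104014910-104030416 and so cover far more than its own length, gave 4.65, 4.15 and 3.98 on the vehicle arrays and 3.003, 4.42 and 4.53 on the GSK-J4 arrays. The flags placed it above background on 3 vehicle arrays and 1 GSK-J4 array, and its log2 fold change was -0.28 (limma adjusted p 0.682). Without GSK-J4 replicate 1 this was 0.21. The last-named probes each have a reading frame without a stop codon, and their sequences are given because they read other stretches of the transcript than A_51_P229163. Whether these probes read coding sequence was not analysed here.
A_55_P2741330: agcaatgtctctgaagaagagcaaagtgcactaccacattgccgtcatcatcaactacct
A_52_P4910: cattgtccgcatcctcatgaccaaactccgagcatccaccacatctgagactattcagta

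Crhr2, the second receptor of this family and the preferred one of the urocortins, was read by a pair of probes. A_51_P399653 (chr6:55040093-55040152, minus strand) gave 9.26, 7.16 and 7.23 on the vehicle arrays and 8.12, 7.68 and 8.03 on the GSK-J4 arrays. Vehicle replicate 1 was the highest of all 6 arrays, and the other vehicle arrays were the lowest. The log2 fold change was 0.06 (SE 0.59, 95% interval -1.38 to 1.51), with a limma adjusted p of 0.948. Without vehicle replicate 1 it was 0.75 (SE 0.16), with an adjusted p of 0.0728, and without vehicle replicate 2 it was -0.30.

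Vehicle replicate 1 also stood apart in the markers of the choroid plexus, the epithelium that makes cerebrospinal fluid. The 5 marker genes had a log2 of their summed signal of 16.70 on that array and of 11.44 to 13.55 on the others. Ttr, the transthyretin gene, gave 14.02 on vehicle replicate 1, against 5.66 and 5.85 on the other vehicle arrays and 8.41, 5.38 and 6.80 on the GSK-J4 arrays. Clic6, another marker, gave 13.45 there against 8.88 and 8.57 on the other vehicle arrays. GSK-J4 replicate 1 was the second highest array for Crhr2 and for the kept probes of Ttr, Clic6, Folr1 and Kcnj13. It was not so for Kl, with 9.07 there against 9.25 on vehicle replicate 2. GSK-J4 replicate 2 was the lowest array for Ttr, but lay above vehicle replicates 2 and 3 for Crhr2. The part of the choroid plexus in the Crhr2 signal was not tested.

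**Figure D3:**
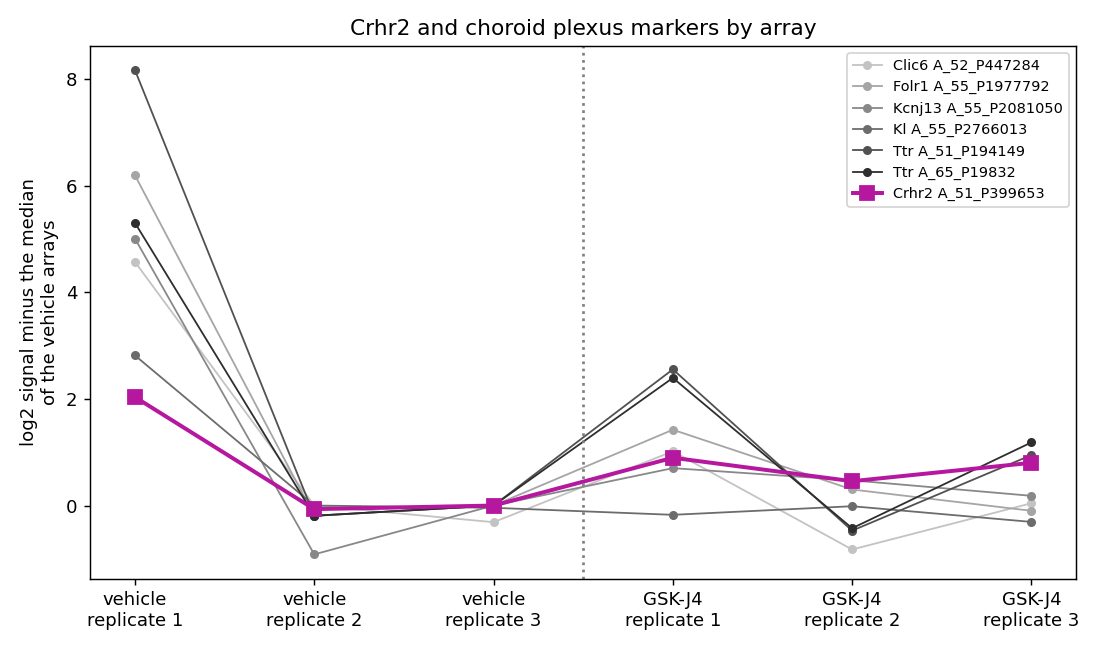
Log2 signal minus the median of the vehicle arrays (vertical axis) on each of the 6 arrays, for the Crhr2 probe A_51_P399653 (squares) and the 6 kept probes of choroid plexus markers (gray circles). Vehicle replicate 1 is the highest array for every line, and the median log2 fold change of the marker probes is -1.21.

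The other Crhr2 probe, A_66_P129218, whose listed coordinates cover only a part of it (chr6:55048621-55048637), was not kept. It gave 3.54, 4.06 and 4.10 on the vehicle arrays, none of them well above background, and 5.33, 4.65 and 4.58 on the GSK-J4 arrays, of which 1 was. The groups did not overlap. No fold is given, since only 1 of the 6 arrays measured the probe. With no filter, its limma adjusted p was 0.0985.

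Crhbp encodes the secreted protein that binds Crh and the urocortins and keeps them from the receptors. Its probe A_52_P460734 (chr13:96201903-96201962, minus strand) gave 10.67, 10.80 and 11.06 on the vehicle arrays and 10.68, 10.61 and 10.09 on the GSK-J4 arrays. The groups overlapped at 10.67 and 10.68. The log2 fold change was -0.38 (SE 0.19, 95% interval -0.85 to 0.09), with a limma adjusted p of 0.205. It was 1 of 2 kept member probes with a negative value, and without GSK-J4 replicate 3 it was -0.20.

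Sstr1 and Sstr2 encode inhibitory somatostatin receptors. The Sstr1 probe A_66_P100777 (chr12:59316670-59316729, plus strand) gave 10.03, 10.13 and 10.72 on the vehicle arrays and 10.42, 10.35 and 10.39 on the GSK-J4 arrays. The groups overlapped, with a log2 fold change of 0.10 (95% interval -0.38 to 0.57, limma adjusted p 0.743). Without vehicle replicate 1 it was -0.04.

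The other Sstr1 probe, A_51_P432950 (chr12:59314287-59314346), was well above background on no array, so that no fold is given. Its values were 2.70, 2.72 and 3.57 on the vehicle arrays and 4.30, 4.02 and 3.75 on the GSK-J4 arrays. Its sequence is shown because it reads Sstr1 on another stretch than the probe that was detected.
A_51_P432950: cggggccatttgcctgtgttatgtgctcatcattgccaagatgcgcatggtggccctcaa
The Sstr2 probe A_55_P2065424 (chr11:113486505-113486564, plus strand) gave 6.39, 6.46 and 6.43 on the vehicle arrays and 6.91, 6.22 and 6.55 on the GSK-J4 arrays. The GSK-J4 arrays lay on both sides of the vehicle arrays, with a log2 fold change of 0.13 (95% interval -0.30 to 0.57, limma adjusted p 0.614).

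**Figure D4:**
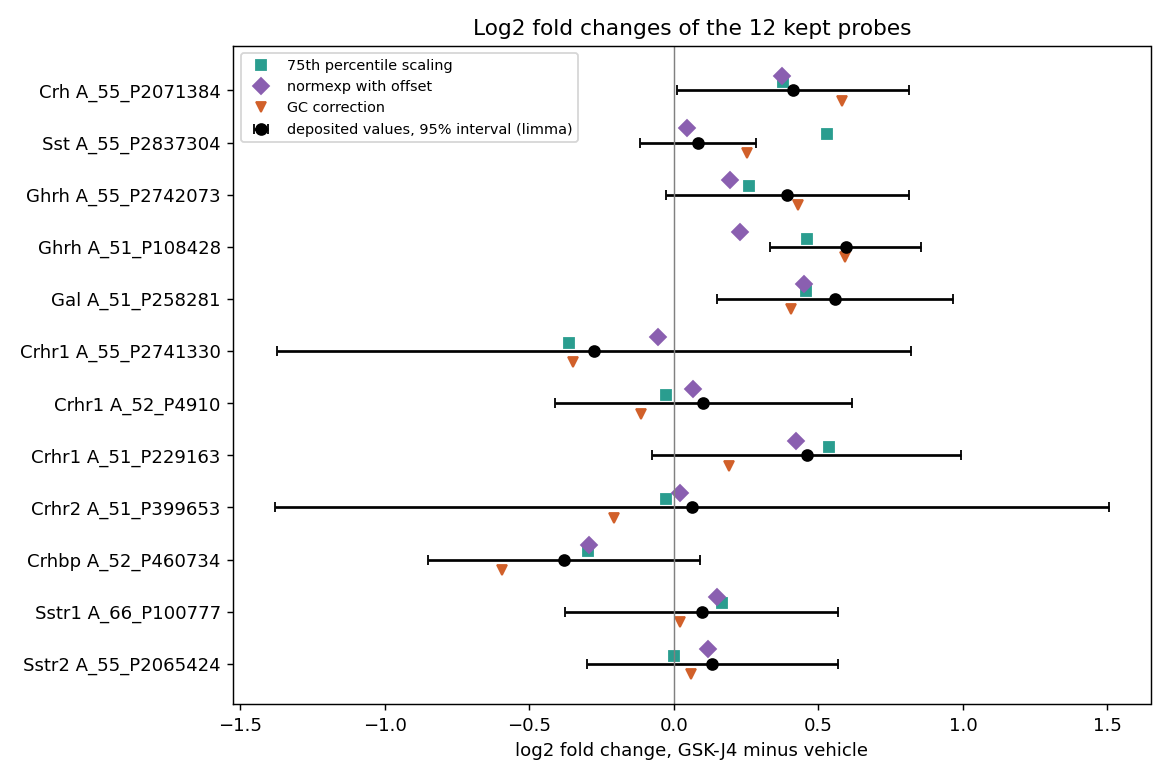
Log2 fold change, GSK-J4 minus vehicle (horizontal axis), of the 12 kept probes. Black points are the deposited values with their 95% interval from limma, and colored points are the same probe under 75th percentile scaling, normexp correction and GC correction. Sst moves from 0.08 to 0.53 under 75th percentile scaling and Ghrh A_51_P108428 from 0.59 to 0.23 under normexp correction.

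The log2 fold changes of the whole array varied with the base composition of the probes. Among the 7890 kept probes poorest in GC (35% or less) the median was -0.16, with 1.74% called higher and 15.8% lower. Among 5376 probes above 50% it was 0.24, with 21.5% called higher and 1.41% lower. The member probes had GC contents of 35% to 55%. All 5 kept peptide probes lay above the 75th percentile of the probes in their own range of GC content, whereas of the 7 receptor and binding protein probes 1 lay above it, 4 between the 25th and 75th percentiles and 2 below.

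When this trend was subtracted from every array (GC correction), the probes rich in GC came out lower and those poor in GC higher. Crh was then 0.58 (limma adjusted p 0.0736) and Sst 0.25 (0.1). Ghrh A_51_P108428 stayed called at 0.59 (0.0325), and Gal was 0.40 (0.161). For Crhbp the corrected value was -0.60 (0.104), for Crhr1 A_51_P229163 0.19 (0.548) and for Crhr2 A_51_P399653 -0.21 (0.833).

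**Figure D5:**
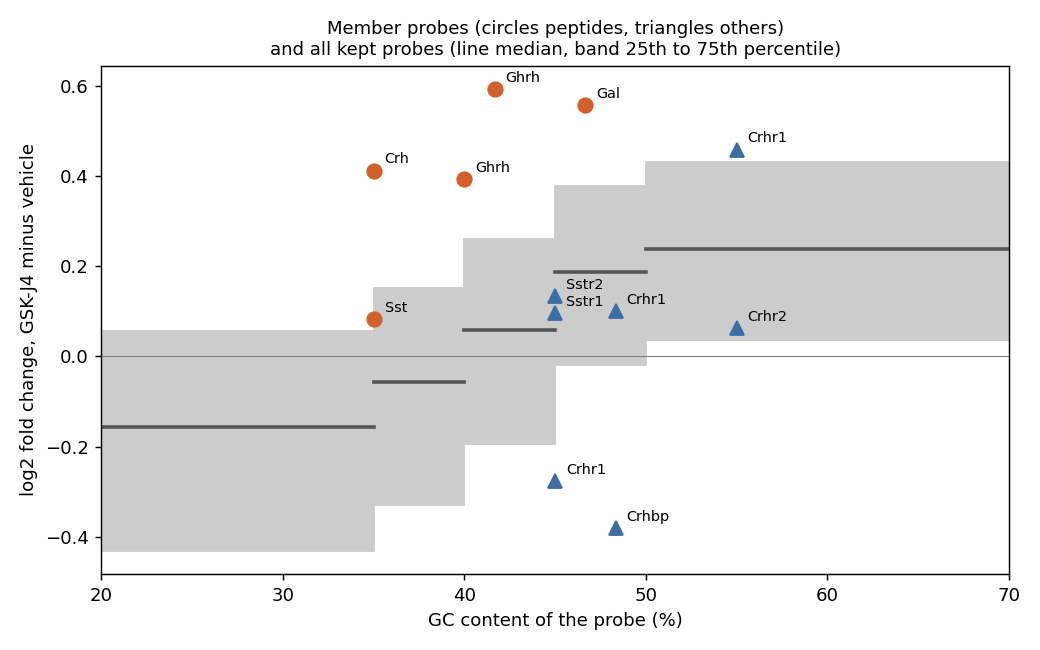
Log2 fold change, GSK-J4 minus vehicle (vertical axis), against the GC content of the probe in percent (horizontal axis). Gray lines and bands give the median and the 25th to 75th percentiles of all kept probes in each range, with the upper edge of a range included. All 5 peptide probes (circles) lie above the band of their range, and 1 of the 7 other member probes (triangles) does.

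The 7 listed markers of the arcuate nucleus, in which Ghrh is made, were read as well. Whether their signal came from that nucleus was not tested. Of the 7 kept probes of these markers, 2 were called higher and 0 lower, with a median log2 fold change of 0.44. The groups did not overlap on 6 of them, all higher on the GSK-J4 arrays. Over all kept probes, 8.39% were called higher and 8.42% lower. Groups did not overlap on 24.5% in the higher direction and on 21.2% in the lower. Apart from Tac2 at 40%, the arcuate probes have GC contents of 48% to 55%. Over the whole array, probes above 45% and up to 50% GC had a median of 0.19, with 15.7% called higher. Probes above 50% had a median of 0.24, with 21.5% called higher. The part of GC content in the arcuate values was not tested. Pomc, the precursor of melanocortins, rose by 0.85 (limma adjusted p 0.0220) and Npy, an orexigenic peptide, by 0.42 (0.0267). Kiss1, the gene of kisspeptin, had the highest value, 1.02 (0.0571), and Agrp the lowest, 0.10 (0.806). The Kiss1 probe was dim, at 4.63, 3.67 and 4.41 on the vehicle arrays, of which 2 were well above background. It was kept only through the GSK-J4 group, and it is 1 of the 6 probes without overlap. The other Kiss1 probe was not kept, and its groups overlapped. The log2 of the summed signal of these markers was 12.13 to 12.30 on the vehicle arrays and 12.61 to 12.74 on the GSK-J4 arrays. Since the probes are not on one scale, this sum does not weigh the markers alike. Its largest part is the Npy probe, at 11.46 to 12.04 over the arrays, so the sum is not a measure of arcuate neurons. Markers of other regions also moved, with Neurod6, on a probe with 35% GC, lower by a log2 fold change of -0.47 (0.0335). Emx1, on a probe with 55% GC, was higher by 0.53 (0.0373). Rax, a marker of tanycytes and the embryonic hypothalamus, rose by 1.09 on 1 of its probes (0.0323), Tbr1 by 0.97 on 1 of 2 (0.0457) and Tcf7l2 by 1.36 on 1 of 4 (0.0389). Rora fell by 1.32 on 1 of 3 kept probes (0.0384), while the others were at 0.32 and 0.42. The Rax probe was well above background on 2 of 3 vehicle arrays and was kept only through the GSK-J4 group. The falling Rora probe was so on 2 of 3 GSK-J4 arrays and was kept only through the vehicle group. The striatum markers spanned 0.84 (Drd1, 0.0614) to -0.12 (Rgs9, 0.681), with none called. The part of regional composition in the Ghrh and Gal values was not tested.

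Among the kept probes of 59 listed genes, the pattern most like that of Ghrh A_51_P108428 was that of Tac2, with a root mean square difference of 0.12 over the 6 arrays after each probe was centred. Th and Qpctl followed, both at 0.13. For Gal the nearest were Ghrh A_51_P108428 and Adora2a, both at 0.14, and Sstr3 at 0.16.

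Related ligands were read for 6 of 7 listed genes. Cort, which encodes cortistatin, a ligand of the somatostatin receptors made in the cortex, rose. It gave 11.46, 11.61 and 11.92 on the vehicle arrays and 12.24, 12.29 and 12.32 on the GSK-J4 arrays, with no overlap. The log2 fold change was 0.62 (SE 0.13, limma adjusted p 0.0319). The probe has 52% GC, and of all kept probes above 50% GC, 21.5% were called higher, with a median of 0.24. Gnrh1, of the reproductive axis, was at -0.39 (0.192). The urocortin genes Ucn and Ucn2 and the galanin-like peptide gene Galp were well above background on no array, and Ucn3 on 1.

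Of 10 other receptor genes, 5 had a kept probe and none was called, with a median log2 fold change of 0.27 over 6 probes. Sstr5 gave both extremes, with 0.52 on a probe whose groups did not overlap (limma adjusted p 0.171) and -0.09 on another (0.590). Sstr3, a somatostatin receptor of neuronal cilia, was at 0.39 (0.0508). The Ghrh receptor gene Ghrhr, the galanin receptor genes Galr1 and Galr2, and Trhr2 and Gnrhr were well above background on no array.

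The enzymes that process and degrade these peptides were read by 16 kept probes of 9 genes, with a median of 0.01. Of these probes, 2 were called higher and 3 lower. Pcsk2, a convertase that cuts prohormones in secretory granules, fell by 1.13 on 1 probe (limma adjusted p 0.00919), whereas its other probe was at 0.17 (0.289). Mme, the peptidase neprilysin, fell by 0.78 on 1 of 3 kept probes (0.0218). Pam, which amidates the ends of Crh, Trh and galanin among others, rose by 0.63 on 1 probe (0.0397) and fell by 0.47 on another (0.0308). Qpctl, a glutaminyl cyclase, rose by 0.39 (0.0312). Probes of 1 gene thus differed in sign for Pcsk2, Mme and Pam. The falling Pcsk2 probe has 35% GC and the other 45%, and the called Pam probes have 37% (falling) and 45% (rising). The falling Mme probe and the Mme probe with a positive value, 0.09, both have 35%. The part of GC content in these differences was not tested.

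Of 9 transcription factors of neuroendocrine neurons, 5 had kept probes, 9 in all, of which 0 were called higher and 2 lower, with a median of 0.11. Arnt2, the partner of Sim1, fell by 0.43 (limma adjusted p 0.0362). Creb1, through which cAMP acts on the Crh and Sst promoters, fell by 0.79 on 1 of 5 kept probes (0.0273), and another of its probes had the highest value of the list, 0.67 (0.159). Both of these Creb1 probes have 35% GC, and the Arnt2 probe has 40%. Sim1, Otp, Hmx2 and Hmx3 were well above background on no array.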

How the data were processed

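RNA labelled hypothalamus was measured on 6 one-colour Agilent SurePrint G3 mouse arrays, 3 labelled GSK-J4 and 3 vehicle, with groups taken from the sample titles. After scanning, the authors obtained spot intensities corrected for background (Agilent Feature Extraction 10.7.1.1, per the submitters' processing notes) and deposited them with the detection flags. They also deposited log2 values per probe, made in GeneSpring by quantile normalization according to their methods. Once sorted, the 6 columns differed by at most 0.00424, and correlations of a column with its array's log2 signal reached 0.999 or more. The deposited log2 values were used, with flags from the scanner files. Columns were assigned by sample name and 0 were left unassigned.

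Control probes were left out. Of 56605 probes, 34443, under 22117 gene names, passed the detection flag on 3 of 3 arrays in 1 group or both and were fitted with lmFit and eBayes (limma 3.58.1 in R 4.3.3), two-sided, without covariates, with Benjamini-Hochberg adjustment over all kept probes. The fit was tested on simulated data. Single probes were also compared by an exact permutation test. Tables were joined with Python 3.11.15 and pandas 2.3.3. Coordinates were copied from the scanner files, which use mm9, and the exons and untranslated regions they fall in were not analysed here. All 10 symbols are in the RefSeq gene table.

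Every probe of the 10 genes is given. Of the lists of related genes and markers, genes past the threshold and the probes with the highest and lowest log2 fold change were named, together with the 3 listed genes nearest in pattern to Ghrh and to Gal. Some listed genes are not reported here. The members and lists were chosen with earlier results of these data known. Replicates are different mice by the series description. Replicate numbers do not pair the arrays: deviations of same-numbered arrays correlated at 0.0073, 0.0256 and 0.0807. Alternatives were quantile normalization from the scanner signals, 75th percentile scaling, normexp with an offset of 50, 2 other filters on dim probes, 1 probe per gene, robust variances with a trend, array weights, a t-test with equal variances at the methods' thresholds (their array section names only t-tests), the same without equal variances, as their statistics section has it, added after seeing the data, a lowess GC correction with a span of 30%, the replicate number as a block, and leaving out each array.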

Additional observations from a re-analysis of the deposited data

How the results depend on the processing

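Member probes called higher numbered 1 on the deposited values, 2 with 75th percentile scaling (Ghrh and Sst), 2 with array weights (Ghrh and Gal), and 0 with 1 probe per gene, where Ghrh is represented by its other probe. The count was also 0 with the replicate block and 0 with the replicate block and GC correction, and both of these called 0 probes of the whole array, beside 5756 higher and 5314 lower at an unadjusted p of at most 0.05 with the block alone. With a t-test without equal variances and Benjamini-Hochberg adjustment, chosen after seeing the data, it was 0 as well, and the whole array then had 56 calls higher and 37 lower. Leaving out 1 array gave counts of 0 to 2. Leaving out a vehicle array left 5 to 13 probes called on the whole array, against 2402 to 4165 without a GSK-J4 array. No member probe was called lower under any of these alternatives.

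The sign of Crhr1 A_52_P4910 turned with 75th percentile scaling (-0.026), array weights (-0.013), GC correction (-0.11), and the replicate block with GC correction (-0.11), and ranged from -0.11 to 0.31 when 1 array was left out. Crhr2 A_51_P399653 turned with 75th percentile scaling (-0.028), GC correction (-0.21), and the replicate block with GC correction (-0.21), and ranged from -0.30 to 0.75. Sstr2 was at -0.0002 with 75th percentile scaling and ranged from -0.040 to 0.30 over the left-out arrays, Sstr1 A_66_P100777 from -0.037 to 0.31, and Crhr1 A_55_P2741330 from -0.55 to 0.21. These probes passed no threshold, and the cause was not tested. Of all comparisons of a member probe with an alternative, 196 kept direction and side of the threshold, 15 turned in sign, 8 lost the call of Ghrh and 5 gained a call. Over the whole array, calls were 2889 higher and 2899 lower, 5037 and 3637 with 75th percentile scaling, 1485 and 2120 with GC correction, and 1793 and 1972 with no filter. At the methods' thresholds, a 1.5-fold change and an unadjusted p, a t-test with equal variances called 1372 higher and 2270 lower, the test without equal variances called 1139 and 1799, and each called 1 member probe higher. Arrays with less signal over background limit what can be said of Ghrh, of Trh and of the dim probes of Crhr2 and Sstr1.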
